A study of Homo sapiens with 24 samples.

Results

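SK-GT-4 Cas9 control cells exposed to the MPS1 inhibitor (MPS1i) reversine were compared with the same cells in its vehicle DMSO. The members were picked by library name, which gave 6 of the 24 libraries of the series, 3 in DMSO and 3 in MPS1i, with 1 library of each treatment in each of 3 batches. SK-GT-4 is an established human cell line from an adenocarcinoma of the esophagus. Both groups carried Cas9 with an intact cGAS gene (cGAS WT in the labels) and received either DMSO or 500 nM reversine, with RNA taken after 48 hours of MPS1i. The labels state the batch, and the study calls the 3 batches biological repeats. They do not name the clone, so the Cas9 control was treated as 1 clone, and what is particular to that clone cannot be told apart from what holds for SK-GT-4 cells. The other libraries came from SK-GT-4 cGAS KO cells and from Cas9 and cGAS KO cells of a further esophageal adenocarcinoma line, OE33, under the same treatments.

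MPS1, encoded by TTK, is the kinase that keeps cells in mitosis until every chromosome is attached to the spindle. Cells without its activity divide with misplaced chromosomes, a form of chromosomal instability (CIN), and leave some of them in micronuclei. DNA in ruptured micronuclei can be bound by cGAS, whose product cGAMP activates STING, and STING signals through TBK1 and IRF3 to interferon-stimulated genes and through NF-kB to inflammatory cytokines. Cells can also meet such stress with the ATF4 program of amino acid and protein stress, with p53 targets and with a pause in the cell cycle.

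Poly(A) RNA was sequenced to between 17258611 and 24681809 counted reads per library over 58735 genes, and 20105 genes had a total of at least 5 counts and a count in at least 4 of the 6 libraries, the limits of the study's filter applied to these 6 libraries alone. Levels are given in CPM, counts scaled to a common library size with TMM factors, always in the order of batches 1, 2 and 3. CGAS itself was at 20.0, 15.9 and 21.6 CPM in DMSO and 21.9, 27.2 and 22.4 CPM in MPS1i, against 2.24 to 5.81 CPM in the 6 SK-GT-4 cGAS KO libraries. Epithelial markers were high, with KRT19 between 1862 and 4311 CPM and EPCAM between 48.1 and 109.8 CPM. PTPRC, the defining immune marker, was at most 0.119 CPM, but the 2 immune markers tested summed to between 10.4 and 36.0 CPM per library. The 4 fibroblast markers tested summed to between 16.3 and 72.6 CPM and the 2 endothelial markers to between 6.78 and 14.3 CPM. TP63, a marker of squamous cells, was between 33.8 and 59.5 CPM, while the squamous keratin KRT5 was at most 0.119 CPM. In bulk RNA, a change in the number of cells of a kind and a change in RNA per cell cannot be told apart.

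Of the 6 libraries, MPS1i replicate 2 stood apart. Over 10501 genes with a mean of at least 5 CPM, 2847 differed more than 2-fold between MPS1i and DMSO in batch 2, against 18 in batch 1 and 23 in batch 3. The median correlation of log2 levels with the other 5 libraries was 0.879 for MPS1i replicate 2 and between 0.969 and 0.976 for the rest. Its difference from DMSO followed gene length. With genes in 5 equal bins of length, the shortest bin had a median log2 difference of 0.62 in batch 2 and the longest -0.68, while in batches 1 and 3 every bin lay between -0.048 and -0.0047. Ribosomal protein genes held 20.6% of its counts, against 10.7% to 12.4% in the others. With a smooth trend in length and GC content removed from each library, 1869 genes still differed more than 2-fold in batch 2. Counts and list medians are therefore given with and without batch 2. Single genes are given from the fit without it. For part of them, values with all 3 batches stand beside them or follow the gene groups. The part of length in any single value of batch 2 was not tested. Batch 3 had a trend of another kind. Its differences had a Spearman correlation of 0.44 with the GC content of genes, against -0.020 in batch 1 and -0.047 in batch 2. The fit without batch 2 uses batch 3, and the part of GC content in any single value of that fit was not tested.

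**Figure D1:**
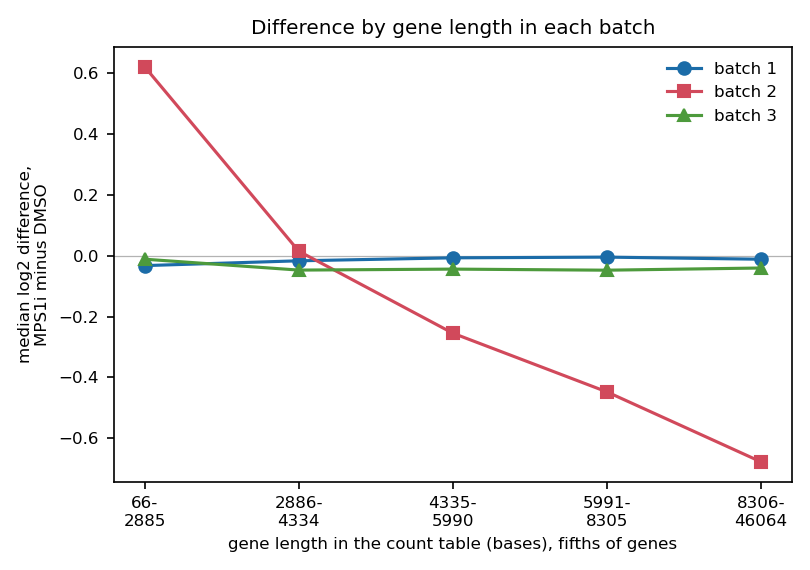
Median log2 difference (MPS1i minus DMSO, log2 CPM) in each batch for 10501 genes in 5 equal bins of gene length (bases, as in the count table). Batches 1 and 3 stay near 0 in every bin, while batch 2 runs from 0.62 in the shortest to -0.68 in the longest bin.

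With all 3 batches, no gene passed an adjusted p of 0.01 (0.0% of 20105 genes up and 0.0% down, edgeR's quasi-likelihood test with the batch as a block). At an unadjusted p under 0.05, 512 genes were higher in MPS1i (2.55% of those tested) and 145 were lower (0.721%). DESeq2 on the same 6 libraries called 3 genes up and 0 down, and these were GDF15, IL32 and CHAC1. Without batch 2, edgeR called 269 genes up (1.34%) and 194 down (0.965%). That fit rested on 2 libraries per group, and its biological coefficient of variation was 5.96%, against 26.8% with all 3 batches. Its prior degrees of freedom were infinite, so a trend over all genes replaced each gene's own quasi-likelihood spread. Its very small p-values and standard errors therefore do not measure how closely the batches agreed for a gene. With edgeR's own filter on low counts, the adjusted p was 7.57e-07 for GDF15 and 2.14e-06 for KRT17. DESeq2 on the same 4 libraries called 45 genes up (0.224%) and 21 down (0.104%), and a fit with 4 SK-GT-4 cGAS KO libraries of batches 2 and 3 added called 67 up (0.333%) and 7 down (0.0348%). With edgeR's own filter on low counts, 83 of 14793 genes were called up (0.561%) and 19 down (0.128%). Without the batch as a block, edgeR called 0 genes in these 4 libraries. In the text that follows, "rose" and "fell" are used for genes called by edgeR without batch 2, and log2 fold changes carry the standard error of that fit unless another is named. Most genes were named by a rule given with the processing, and list members named beyond it were chosen after their values were seen.

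The Cas9 libraries of batch 2 took no part in that choice. Of the 269 genes that rose, 182 (67.7%) were also higher in MPS1i in batch 2, where 48.6% of all genes tested were higher. Of the 194 genes that fell, 131 (67.5%) were also lower in batch 2, against 51.0% of all genes tested. Differences in batch 2 followed gene length, and the shares over all genes were not matched for length. How much of the shared direction goes with length was not tested. The changes were mostly small, with a median log2 fold change of 0.63 for genes that rose and -0.34 for genes that fell, and 43 genes rose and 7 fell at least 2-fold. A total of 32 genes rose and 5 fell in all 4 fits without batch 2 named above. In batch 2, 28 of those 32 were higher and 3 of those 5 lower in MPS1i. Most genes given below as risen or fallen were therefore not called in every fit. Called in none of the other 3 were, among others, FANCA, PAXIP1, ARHGAP19, UHRF1, PLK1, KIF11, MCM6, AURKB, NFKBIA and BBC3.

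**Figure D2:**
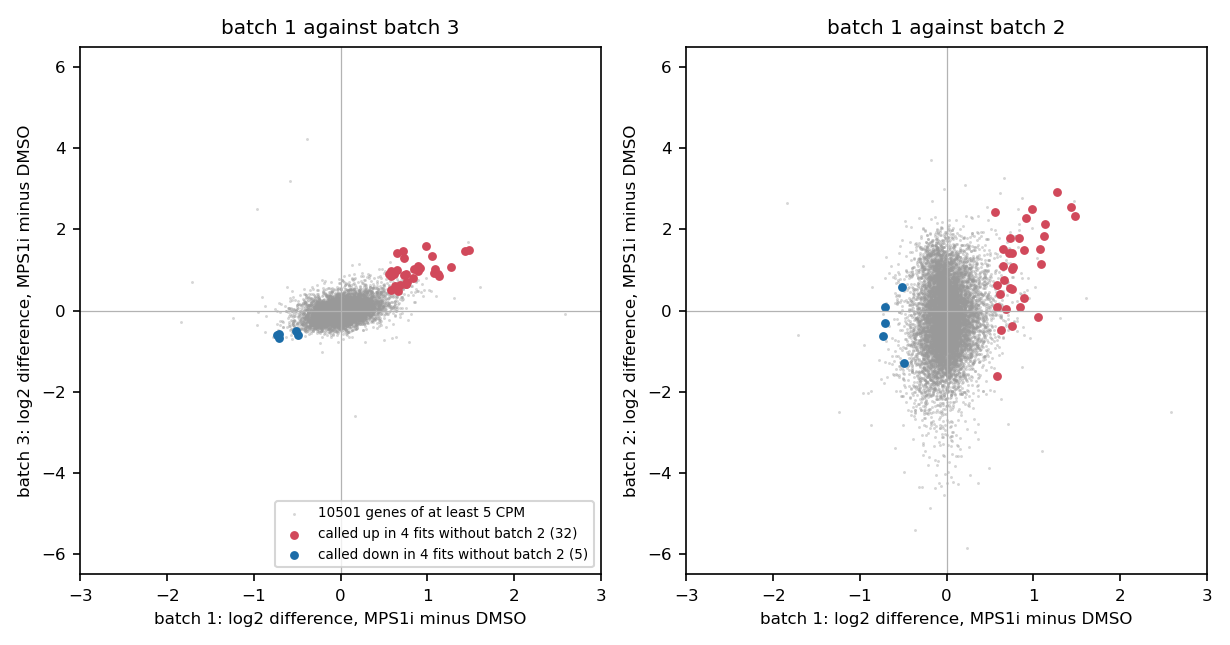
Log2 difference between MPS1i and DMSO (log2 CPM) of 10501 genes in batch 1 (horizontal) against batch 3 (left) and batch 2 (right). The 32 genes called up (red) and 5 called down (blue) in 4 fits without batch 2 were chosen on Cas9 batches 1 and 3 and, in 1 of the fits, cGAS KO batches 2 and 3. In Cas9 batch 2, whose spread is wider and whose differences followed gene length, 28 of the 32 lie above 0 and 3 of the 5 below.

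Counts within gene lists depended on the fit, also without batch 2. Each list's counts in edgeR without batch 2 stand beside 1.34% of all genes tested that rose and 0.965% that fell. For DNA replication genes, the 16 that fell in edgeR became 6 in DESeq2, 2 in the fit with the cGAS KO libraries and 4 with edgeR's own filter. For the ATF4 stress response, the 11 that rose became 3, 6 and 7 in the same order, for NF-kB the 9 became 2, 3 and 4, and for interferon-stimulated genes the 7 became 3, 2 and 5. The 8 genes of G2 and mitosis that fell became 2, 0 and 1, and the 6 NRF2 targets that rose 3, 2 and 5. Of the genes of cholesterol synthesis, 8 rose in edgeR and none in the other 3 fits, and of mitochondrially encoded transcripts 9 and none. Every call was also lost in those 3 fits for the spindle checkpoint (3 fell), YAP targets (3 fell) and heat shock (2 rose). So it was for apoptosis regulators (2 rose, 1 fell), MHC class I (1 rose), cGAS-STING (1 fell) and ribosomal proteins (1 fell). The 2 CXCR1/2 ligands became 0, 1 and 0. DESeq2 gave no adjusted p for 99 of the 463 genes called by edgeR, among them 3 of the ATF4 response, 3 of NF-kB, 2 interferon-stimulated genes and 1 ligand. The 3 AhR genes were called in each of these 4 fits.

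CHAC1 and GDF15, which cells induce under stress, had the smallest p-values with all 3 batches and rose without batch 2. CHAC1, a target of ATF4 that encodes an enzyme which breaks down glutathione, was at 9.12, 3.92 and 4.60 CPM in DMSO and at 25.7, 20.2 and 13.1 CPM in MPS1i. All 3 MPS1i libraries were above all 3 DMSO libraries. Its log2 fold change was 1.51 ± 0.14 without batch 2 (adjusted p = 1.41e-23) and 1.78 ± 0.26 with all 3 batches (adjusted p = 0.810). GDF15, a secreted stress cytokine that is also a p53 target, was at 24.4, 32.8 and 20.9 CPM in DMSO and 66.1, 193 and 58.2 CPM in MPS1i, again with no overlap. It rose by 1.46 ± 0.10 on the log2 scale without batch 2 (adjusted p = 1.38e-47), and the value with all 3 batches was 1.82 ± 0.28 (adjusted p = 0.810). The MPS1i library of batch 2 held the highest level of GDF15. Over all genes tested, 5.46% had every MPS1i library above every DMSO library, and 4.17% had every MPS1i library below.

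Of the 19 genes of the ATF4 stress response, 11 rose without batch 2 and none fell. The list's median log2 difference was 0.58, 0.78 and 0.45 in batches 1, 2 and 3, beside medians over all genes tested of 0.0060, -0.032 and -0.0085. In 3 of 3 batches 16 of the 19 were higher, against 15.6% of all genes tested. ATF4, the factor itself, rose by 0.33 ± 0.067 (adjusted p = 1.05e-04). Its partner factor DDIT3 (CHOP) was at 6.57, 4.86 and 5.39 CPM in DMSO and 11.7, 28.1 and 9.43 CPM in MPS1i and rose by 0.83 ± 0.15. Among the targets, SLC7A11, the cystine importer, was at 72.8, 23.3 and 29.8 CPM and then 124, 48.8 and 48.5 CPM and rose by 0.74 ± 0.084 (adjusted p = 1.07e-15). NUPR1, a stress-induced regulator of transcription, had 1.74, 1.03 and 0.634 CPM in DMSO and 4.99, 12.1 and 1.55 CPM in MPS1i, with a log2 fold change of 1.44 ± 0.28. ASNS, asparagine synthetase, rose by 1.17 ± 0.19. In batch 2, DDIT4 and ATF5 went the other way, with log2 differences of -0.73 and -0.68.

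The promoters of CHAC1 and ASNS are shown because both hold the ATF4 element TGATGNAA on either strand (capitals) in the 250 bases before the gene's start (RefSeq, GRCh38.p14).
CHAC1 (chr15:40953221-40953470, + strand): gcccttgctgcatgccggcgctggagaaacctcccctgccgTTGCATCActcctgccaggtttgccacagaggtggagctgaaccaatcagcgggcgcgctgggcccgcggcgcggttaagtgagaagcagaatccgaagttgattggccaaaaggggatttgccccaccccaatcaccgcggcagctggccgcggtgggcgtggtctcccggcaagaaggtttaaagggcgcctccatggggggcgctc
ASNS (chr7:97872409-97872658, - strand): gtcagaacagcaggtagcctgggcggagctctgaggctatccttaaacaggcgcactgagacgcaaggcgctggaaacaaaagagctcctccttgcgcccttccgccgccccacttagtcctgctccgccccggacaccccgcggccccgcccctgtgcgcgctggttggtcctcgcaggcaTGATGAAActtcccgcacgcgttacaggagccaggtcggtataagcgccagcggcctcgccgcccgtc
The match began 209 bases before the start in CHAC1 and 68 bases before it in ASNS. Of 17 list members with a promoter in the RefSeq table, 17.6% held a match, as did 3.19% of all 27305 promoters of this length. GDF15 and DDIT3 held none in this window.

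Targets of NRF2, the factor of the oxidative stress response, were called in part. HMOX1, heme oxygenase 1, was at 28.0, 28.0 and 22.2 CPM in DMSO and 59.1, 79.8 and 42.0 CPM in MPS1i, with no overlap, and rose by 1.01 ± 0.10 (adjusted p = 4.06e-21). OSGIN1, an oxidative stress gene, rose by 0.70 ± 0.12, and the aldo-keto reductases AKR1C1 and AKR1C2 by 0.51 ± 0.064 and 0.38 ± 0.089. In all, 6 of 19 NRF2 targets rose and none fell, while NQO1, a canonical member, had a log2 fold change of 0.036 ± 0.060 (adjusted p = 0.895). The list's medians by batch were 0.19, 0.69 and 0.21.

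Of 10 genes of the aryl hydrocarbon receptor (AhR), a ligand-activated factor that induces enzymes for foreign compounds, 3 rose without batch 2 and none fell. CYP1A1, its classical target, was at 23.7, 14.8 and 9.79 CPM in DMSO and 39.3, 39.9 and 27.3 CPM in MPS1i. Each MPS1i library was above each DMSO library, and the log2 fold change was 1.08 ± 0.11 (adjusted p = 4.16e-18) without batch 2 and 1.21 ± 0.24 (adjusted p = 0.810) with it. CYP1B1, a related cytochrome P450, was at 58.1, 21.8 and 20.8 CPM and then 91.5, 62.5 and 56.2 CPM, so that MPS1i was higher in every batch while the DMSO library of batch 1 lay above the MPS1i library of batch 3. It rose by 1.02 ± 0.088. ALDH3A1, an aldehyde dehydrogenase, went from 87.2, 109.7 and 75.5 CPM to 137, 233 and 151 CPM and rose by 0.83 ± 0.075 (adjusted p = 5.62e-25). AHR itself and the repressor AHRR had log2 fold changes of 0.29 ± 0.11 and 0.30 ± 0.15, and TIPARP 0.19 ± 0.075; these were not called. The promoter of CYP1A1 is given with the core GCGTG of the AhR element in capitals (RefSeq, GRCh38.p14, both strands searched).
CYP1A1 (chr15:74725529-74725778, - strand): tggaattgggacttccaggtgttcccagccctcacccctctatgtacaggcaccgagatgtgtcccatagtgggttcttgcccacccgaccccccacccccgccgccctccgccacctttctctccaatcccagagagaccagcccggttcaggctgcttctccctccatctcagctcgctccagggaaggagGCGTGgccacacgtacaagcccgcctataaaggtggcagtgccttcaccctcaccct
The core is short and was in 31.9% of all promoters, in 43.2% of those of genes tested and in those of 4 of 8 list members. CYP1B1 and ALDH3A1 had no entry in the promoter table.

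Some cytokine genes rose, from baselines that differed between batches. IL32, a proinflammatory cytokine, was at 7.60, 3.21 and 1.98 CPM in DMSO and 21.2, 21.4 and 6.65 CPM in MPS1i. It rose by 1.58 ± 0.16 without batch 2 (adjusted p = 8.37e-20) and stood at 1.98 ± 0.31 with all 3 batches (adjusted p = 0.810). IL1A, the alarmin interleukin 1 alpha, was at 69.0, 3.70 and 7.73 CPM and 130.4, 18.3 and 16.0 CPM, so the DMSO library of batch 1 exceeded the MPS1i libraries of batches 2 and 3, while within each batch MPS1i was higher. It rose by 0.96 ± 0.10. IL11 rose by 0.72 ± 0.086 and IL6 by 1.00 ± 0.23, the latter from 5.27, 0.357 and 0.277 CPM to 9.05, 3.13 and 1.22 CPM. The call of IL6 was lost with the cGAS KO libraries added (adjusted p = 0.0989) and with edgeR's own filter (adjusted p = 0.0522), and DESeq2 gave it no adjusted p. In all, 4 of 12 interleukins and growth factors rose and none fell.

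CXCL8 (IL-8), a ligand of CXCR1 and CXCR2 that draws in neutrophils, had DMSO levels far apart between batches. It was at 241, 15.9 and 26.6 CPM in DMSO and 279.7, 136 and 59.4 CPM in MPS1i, and its log2 difference was 0.22 in batch 1, 3.09 in batch 2 and 1.15 in batch 3. Without batch 2 it rose by 0.62 ± 0.075 (adjusted p = 1.56e-13), DESeq2 on the same libraries gave an adjusted p of 0.0156, and with all 3 batches the value was 1.46 ± 0.55 (adjusted p = 0.810). CXCL2 was at 3.10, 0.312 and 0.159 CPM in DMSO and 6.33, 2.35 and 0.721 CPM in MPS1i and rose by 1.19 ± 0.28 (adjusted p = 0.00160), a call lost with the cGAS KO libraries added (adjusted p = 0.0899) and with edgeR's own filter (adjusted p = 0.0459). CXCL3 had a log2 fold change of 1.00 ± 0.34 (adjusted p = 0.0678) and CXCL1 of 0.25 ± 0.15 (adjusted p = 0.458), which did not pass. Of 6 CXCR1/2 ligands tested, 2 rose. All 6 were higher in batch 2, where 48.6% of all genes tested were higher, a share not matched for gene length. None of 6 other chemokines passed, among them CCL5 at 0.380, 0.312 and 0.119 CPM in DMSO and 0.785, 2.47 and 0.832 CPM in MPS1i. CCL20 and CCL2 were at most 3.14 and 1.39 CPM in any library.

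The NF-kB list, which holds subunits, inhibitors and targets of this inflammatory factor, had 9 of 15 members that rose without batch 2. Among the subunits, RELB was at 19.5, 10.3 and 8.64 CPM and then 34.8, 35.7 and 15.1 CPM and rose by 0.83 ± 0.12 (adjusted p = 4.91e-09), and NFKB2 by 0.72 ± 0.11. The canonical subunits RELA and NFKB1 had log2 fold changes of 0.072 ± 0.078 and -0.061 ± 0.093, and neither passed. Inhibitors that are themselves NF-kB targets rose, with NFKBIE at 0.74 ± 0.13, TNFAIP3 at 0.69 ± 0.13 and NFKBIA at 0.28 ± 0.074. Batch 2 split the list, whose median there was -0.20, beside 0.47 in batch 1 and 0.67 in batch 3. RELA and NFKB1 were then at -1.17 and -1.08, while BIRC3 and RELB were at 1.85 and 1.78.

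Promoters of CXCL8, IL32 and NFKBIA hold the NF-kB site GGANTTTCC (capitals, either strand) and are shown for the group.
CXCL8 (chr4:73740319-73740568, + strand): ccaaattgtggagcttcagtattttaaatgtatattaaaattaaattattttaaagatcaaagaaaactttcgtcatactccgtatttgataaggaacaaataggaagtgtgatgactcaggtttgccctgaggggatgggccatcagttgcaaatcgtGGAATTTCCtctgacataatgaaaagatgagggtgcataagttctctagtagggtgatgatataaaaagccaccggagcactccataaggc
IL32 (chr16:3065153-3065402, + strand): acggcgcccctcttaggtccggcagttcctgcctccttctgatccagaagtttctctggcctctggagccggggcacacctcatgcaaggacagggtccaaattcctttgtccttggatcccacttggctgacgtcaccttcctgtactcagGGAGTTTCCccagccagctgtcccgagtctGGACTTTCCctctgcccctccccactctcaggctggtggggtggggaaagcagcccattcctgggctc
NFKBIA (chr14:35404750-35404999, - strand): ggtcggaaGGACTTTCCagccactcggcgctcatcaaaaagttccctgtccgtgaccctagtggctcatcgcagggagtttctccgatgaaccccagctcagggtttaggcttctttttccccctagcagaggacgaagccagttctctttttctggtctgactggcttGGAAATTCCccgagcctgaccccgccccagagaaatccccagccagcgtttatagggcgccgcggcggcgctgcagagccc
CXCL8 held 1 match, IL32 and NFKBIA 2 each. The share of promoters with a match was 85.7% of 7 CXCR1/2 ligands, 46.2% of 13 NF-kB list members, 7.37% of 190 genes that rose, 1.91% of 157 that fell and 1.47% of all promoters. Among genes tested that had a promoter it was 1.44%.

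Interferon-stimulated genes rose in part. Of 25 interferon-stimulated genes tested, 7 rose without batch 2 and none fell. In 3 of 3 batches 15 were higher, against 15.6% of all genes tested, and the medians by batch were 0.42, 0.61 and 0.39. IFIT2, which blocks translation of viral RNA, was at 15.7, 13.6 and 13.0 CPM in DMSO and 33.4, 30.0 and 26.7 CPM in MPS1i. Its log2 difference was 1.08, 1.14 and 1.03 in batches 1, 2 and 3. The log2 fold change was 1.07 ± 0.12 without batch 2 (adjusted p = 5.55e-17) and 1.09 ± 0.19 with it (adjusted p = 0.810). OASL was at 36.1, 22.7 and 24.7 CPM in DMSO and 54.2, 35.3 and 48.7 CPM in MPS1i and rose by 0.78 ± 0.10. ISG15, a ubiquitin-like protein, rose by 0.47 ± 0.073 from 117, 99.5 and 101 CPM to 151, 497 and 149 CPM. ISG20 rose by 0.81 ± 0.15. RSAD2 (viperin) was listed at 0.217, 0.0446 and 0.119 CPM in DMSO and 0.647, 1.39 and 0.776 CPM in MPS1i and did not pass (adjusted p = 0.0693). MX1 and IFI6 had log2 fold changes of 0.26 ± 0.22 and 0.13 ± 0.15, neither of them called.

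Among 11 genes of the cGAS-STING pathway tested, none rose and RNASEH2B, a subunit of the nuclease that removes RNA from DNA, fell by 0.36 ± 0.10 (adjusted p = 0.00839), with a log2 difference of 0.43 in batch 2. The log2 fold change of CGAS was 0.10 ± 0.12 (adjusted p = 0.824). STING, listed as TMEM173, was at 10.3, 8.78 and 7.45 CPM in DMSO and 10.9, 9.57 and 11.6 CPM in MPS1i, a log2 fold change of 0.37 ± 0.14 that did not pass (adjusted p = 0.136). IRF3 had 0.11 ± 0.078, TBK1 -0.017 ± 0.12, SAMHD1 -0.10 ± 0.092 and SLC19A1 -0.16 ± 0.090. Of 14 genes of MHC class I presentation, HLA-E rose (0.31 ± 0.075) and none fell. PSMB10 and HLA-B had log2 fold changes of 0.44 ± 0.15 and 0.25 ± 0.10, and neither passed.

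The promoter of ISG15 holds 2 overlapping copies of the interferon-stimulated response element (capitals), here GAAA repeated after 2 free bases, which begin 113 and 107 bases before the start.
ISG15 (chr1:1013247-1013496, + strand): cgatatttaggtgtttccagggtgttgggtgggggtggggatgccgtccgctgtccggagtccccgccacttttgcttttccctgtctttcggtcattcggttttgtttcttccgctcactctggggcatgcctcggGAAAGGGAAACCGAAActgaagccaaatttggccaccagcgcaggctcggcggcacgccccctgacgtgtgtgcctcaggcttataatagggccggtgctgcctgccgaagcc
The element was in 60.0% of 20 interferon-stimulated genes with a promoter in the table, in 3.68% of the 190 genes that rose and in 3.07% of all promoters. Among genes tested that had a promoter the share was 2.35%. IFIT2 and OASL had no entry.

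**Figure D3:**
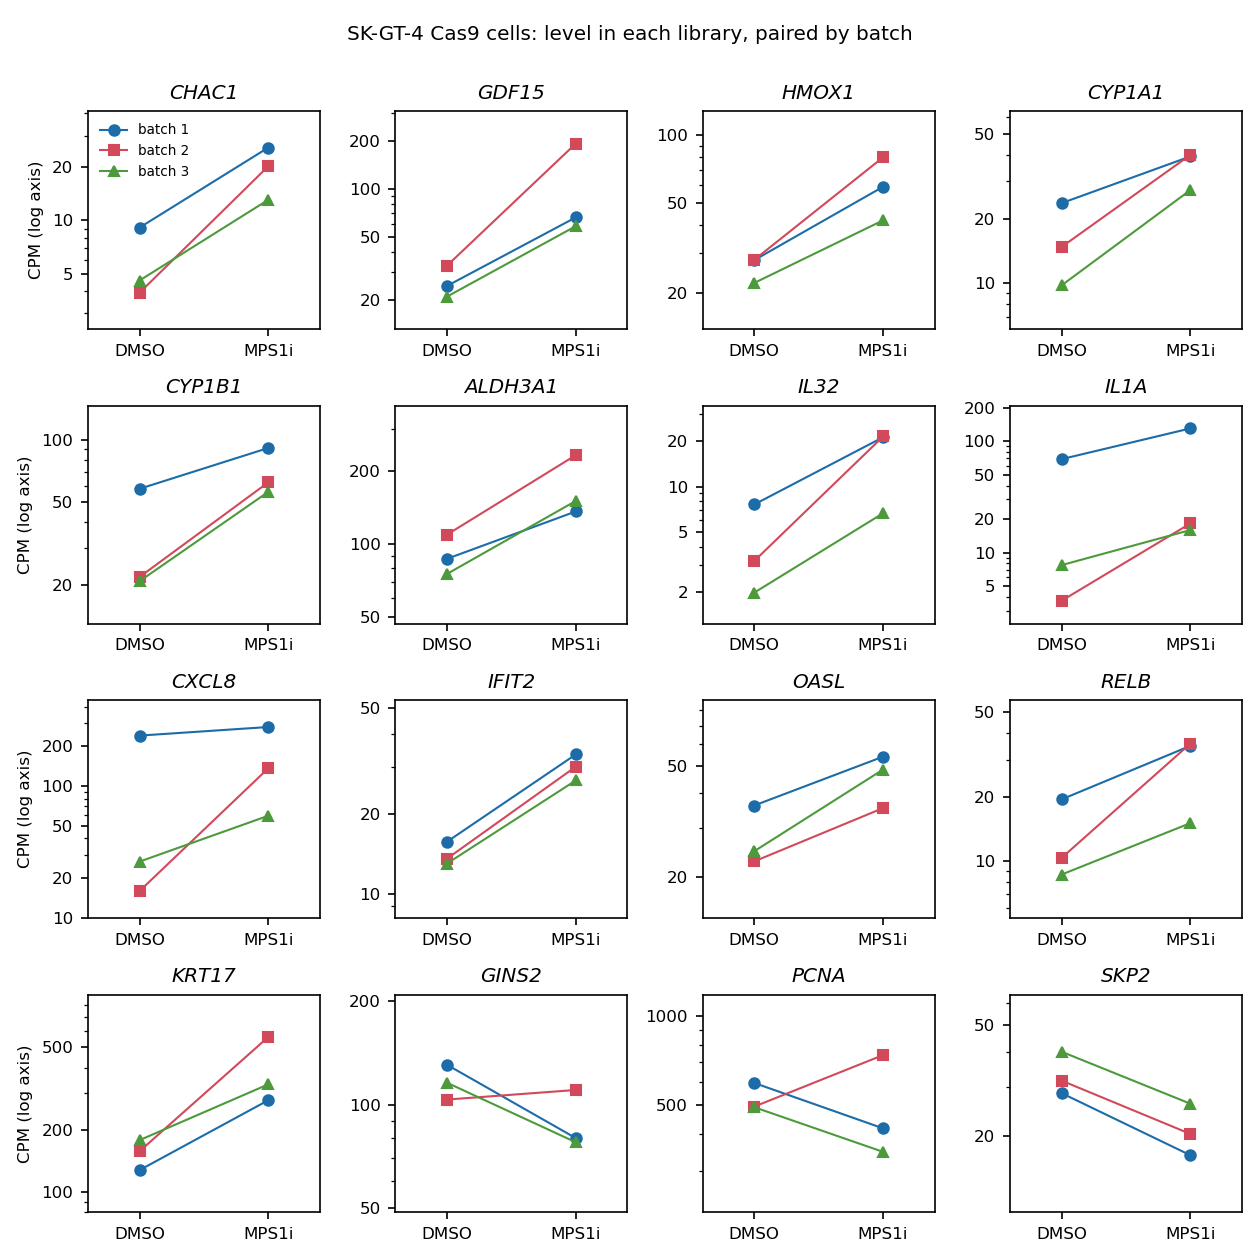
Level of 16 genes (CPM with TMM factors, log axis) in the DMSO and MPS1i library of each batch, with lines joining libraries of the same batch. CHAC1, GDF15, HMOX1 and IFIT2 were higher in MPS1i in 3 of 3 batches without overlap, while CXCL8 and IL1A started from a higher DMSO level in batch 1, and GINS2 and PCNA were not lower in batch 2.

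Of 15 keratins tested, 4 rose without batch 2 and none fell, and each of the other 3 fits called 3. KRT17 was at 128, 158 and 178 CPM in DMSO and 278, 562 and 332 CPM in MPS1i and rose by 1.01 ± 0.069 (adjusted p = 4.71e-45). KRT16 rose by 1.26 ± 0.15, KRT4 by 1.13 ± 0.14 and KRT14 by 0.74 ± 0.18. KRT8, KRT18 and KRT19, of simple epithelium, had log2 fold changes of 0.17 ± 0.056, 0.018 ± 0.062 and 0.19 ± 0.054 and were not called. KRT4, a keratin of the upper layers of esophageal epithelium, ran from 4.13, 42.2 and 12.3 CPM to 6.93, 61.7 and 30.6 CPM, a spread between batches that exceeded its change. AGR2, a secretory-cell chaperone, was at 54.2, 201 and 89.6 CPM in DMSO and 90.5, 698 and 163 CPM in MPS1i and rose by 0.81 ± 0.077. With the gastric mucin MUC5AC (1.38 ± 0.30) it was 1 of 2 among 11 columnar and goblet cell genes that rose, while TFF1 and TFF2 were at most 2.47 CPM. Of 14 epithelial and mesenchymal genes, VIM (vimentin) alone passed and fell by 0.42 ± 0.073, with a log2 difference of 0.42 in batch 2. KLF2, a transcription factor of quiescent cells, rose by 1.00 ± 0.12 from 19.8, 8.65 and 9.59 CPM to 37.0, 24.3 and 20.6 CPM. TSC22D3 (GILZ), induced by glucocorticoids and FOXO factors, rose by 1.01 ± 0.13, and PIK3IP1, an inhibitor of PI3K, by 0.79 ± 0.19. EGR1, KLF4 and ATF3, immediate early factors, rose by 1.16 ± 0.15, 0.72 ± 0.10 and 0.92 ± 0.11, and in batch 2 their log2 differences were -0.15, 0.54 and 0.079. The linker histone gene HIST1H1C rose by 1.21 ± 0.14 and HIST1H2AC by 0.72 ± 0.13, and with HIST1H3E and HIST3H2A they were the 4 of 58 tested histone genes that rose. Transcripts of replication-dependent histone genes mostly lack the poly(A) tail used for selection here. Rarer transcripts with a higher level in 3 of 3 batches were SYT8 (0.272, 0.981 and 0.396 CPM in DMSO and 0.924, 3.67 and 1.22 CPM in MPS1i; adjusted p = 0.0380, not called) and SPX (log2 fold change 1.24 ± 0.27).

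Genes of DNA replication fell together. Of 20 tested, 16 fell without batch 2 and none rose, 15 were lower in 3 of 3 batches and 10 had every MPS1i library below every DMSO library, beside 16.0% and 4.17% of all genes tested. The list's medians by batch were -0.38, -0.58 and -0.35. GINS2, a subunit of the replicative helicase, was at 131, 104 and 116 CPM in DMSO and 80.1, 110.5 and 77.9 CPM in MPS1i. It fell by 0.64 ± 0.076 (adjusted p = 6.16e-14) without batch 2, but was level in batch 2, and its value with all 3 batches was -0.40 ± 0.22 (adjusted p = 0.810). PCNA, the sliding clamp, was at 595, 496 and 493 CPM and then 419, 739 and 349 CPM, so it was lower in batches 1 and 3 and higher in batch 2. It fell by 0.50 ± 0.063 without batch 2 and stood at -0.15 ± 0.27 with it. The helicase subunits MCM3 and MCM6 were lower in 3 of 3 batches. MCM3 went from 199.7, 194 and 180.2 CPM to 152, 96.3 and 137 CPM, a log2 fold change of -0.39 ± 0.071 without batch 2 (adjusted p = 8.17e-06), and MCM6 fell by 0.38 ± 0.071. UHRF1, which carries DNA methylation through replication, fell by 0.43 ± 0.094. CDC6, CDC45 and E2F1 fell, with log2 fold changes of -0.36 ± 0.072, -0.41 ± 0.082 and -0.31 ± 0.075. CCNE1, CCNE2, MCM2 and POLA1 had log2 fold changes of -0.24 ± 0.14, -0.27 ± 0.13, -0.19 ± 0.071 and -0.31 ± 0.12, and these 4 did not pass.

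Promoters of PCNA, MCM3 and GINS2 carry the E2F site GCGGGAA, in capitals on either strand, and E2F factors are the regulators known for these genes at the start of S phase.
PCNA (chr20:5126623-5126872, - strand): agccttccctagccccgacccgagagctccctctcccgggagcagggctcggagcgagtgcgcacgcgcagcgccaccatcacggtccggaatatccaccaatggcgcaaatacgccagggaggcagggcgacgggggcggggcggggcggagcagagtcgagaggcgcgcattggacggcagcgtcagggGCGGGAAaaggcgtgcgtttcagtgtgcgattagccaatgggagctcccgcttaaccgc
MCM3 (chr6:52284743-52284992, - strand): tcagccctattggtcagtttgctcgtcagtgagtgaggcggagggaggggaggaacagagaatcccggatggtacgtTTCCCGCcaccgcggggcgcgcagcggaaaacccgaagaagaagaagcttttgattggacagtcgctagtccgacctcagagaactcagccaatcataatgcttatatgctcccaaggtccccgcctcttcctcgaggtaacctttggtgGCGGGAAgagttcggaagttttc
GINS2 (chr16:85688955-85689204, - strand): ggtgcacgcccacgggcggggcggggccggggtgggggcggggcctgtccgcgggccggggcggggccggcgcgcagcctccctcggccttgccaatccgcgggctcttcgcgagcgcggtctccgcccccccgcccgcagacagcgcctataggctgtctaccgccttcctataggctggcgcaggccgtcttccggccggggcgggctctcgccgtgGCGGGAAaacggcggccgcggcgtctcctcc
PCNA and GINS2 had 1 match and MCM3 2. Of 17 DNA replication genes in the promoter table, 52.9% held the site, as did 20.4% of 157 genes that fell, 3.68% of 190 that rose and 8.36% of the 13008 genes tested that had a promoter. CDC6 held none in this window.

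Of 21 genes of G2 and mitosis, 8 fell without batch 2 and none rose, beside 0.965% of all genes tested that fell. In 3 of 3 batches 14 were lower, against 16.0% of all genes tested, and the medians by batch were -0.24, -0.91 and -0.22. CCNA2, the cyclin of S and G2 phase, was at 169, 149.8 and 169.6 CPM in DMSO and 125, 74.4 and 132 CPM in MPS1i and fell by 0.39 ± 0.072 (adjusted p = 1.03e-05). PLK1, a mitotic kinase, fell by 0.34 ± 0.067. KIF11, a motor of the spindle, fell by 0.34 ± 0.078. PLK1 and KIF11 had every MPS1i library below every DMSO library, as did 4.17% of all genes tested. CDK1, which fell by 0.39 ± 0.068, was higher in batch 2 (log2 difference 0.49). The target of the inhibitor, TTK, was at 86.4, 78.6 and 82.2 CPM in DMSO and 69.0, 52.6 and 69.1 CPM in MPS1i, lower without overlap, with a log2 fold change of -0.28 ± 0.080 that did not pass (adjusted p = 0.0169). Of the 15 genes of the spindle checkpoint and kinetochore, AURKB, MAD2L1 and SPC25 fell, with log2 fold changes of -0.31 ± 0.078, -0.29 ± 0.074 and -0.53 ± 0.10, and these 3 were higher in batch 2. BUB1B and CDCA8 had log2 fold changes of -0.32 ± 0.094 and -0.24 ± 0.087, not called. CDKN1A (p21), the p53 target that arrests the cycle, was at 85.0, 84.9 and 81.5 CPM in DMSO and 112, 96.5 and 119.7 CPM in MPS1i and rose by 0.48 ± 0.076 (adjusted p = 7.03e-08). BBC3 (PUMA), which promotes apoptosis, rose by 0.79 ± 0.17. BMF, of the same protein family, rose by 0.67 ± 0.15, and the survival factor MCL1 fell by 0.26 ± 0.066. GDF15, CDKN1A and BBC3 were the 3 of 19 p53 targets that rose, and MDM2, another target, had -0.11 ± 0.10.

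Further genes that were lower in 3 of 3 batches came from several parts of the cell. SKP2, which marks the inhibitor p27 for degradation and so lets cells enter S phase, was at 28.6, 31.7 and 40.1 CPM in DMSO and 17.1, 20.4 and 26.2 CPM in MPS1i and fell by 0.67 ± 0.11 (adjusted p = 1.82e-07). CDCA7, a regulator of DNA methylation, fell by 0.53 ± 0.077. LMNB1, lamin B1 of the nuclear envelope, fell by 0.52 ± 0.084. LMNB1 was at 67.8, 84.1 and 79.8 CPM in DMSO and 42.8, 34.3 and 60.3 CPM in MPS1i, and its groups did not overlap. FANCA and PAXIP1, which act in DNA repair, fell, with log2 fold changes of -0.52 ± 0.11 and -0.72 ± 0.16. Both calls were lost with the cGAS KO libraries added (adjusted p = 0.0745 and 0.0408) and with edgeR's own filter (adjusted p = 0.0168 and 0.0230). The others were ARHGAP19 (-0.64 ± 0.14), UBR7 (-0.47 ± 0.082), ZNF365 (-0.55 ± 0.11), the sulfotransferase HS3ST3A1 (-0.70 ± 0.14) and the long noncoding RNA MANCR (-0.63 ± 0.12), which all fell. FKBP5, a chaperone of steroid receptors, had -0.60 ± 0.17 and was not called (adjusted p = 0.0174). POLE2, a polymerase subunit, fell by 0.68 ± 0.11 and is named because it fell in all 4 fits.

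Of 18 genes of cholesterol synthesis and uptake, 8 rose without batch 2 and none fell, though none was called in DESeq2, with the cGAS KO libraries added or with edgeR's own filter. STARD4, INSIG1 and MSMO1 rose by 0.48 ± 0.13, 0.45 ± 0.12 and 0.37 ± 0.082 and were higher in 3 of 3 batches, while the list's median was -0.18 in batch 2. HERPUD1, XBP1 and DNAJB9, of the response to unfolded protein, rose by 0.57 ± 0.076, 0.43 ± 0.071 and 0.64 ± 0.14, and with HSPA5 (0.25 ± 0.061) they were the 4 of 16 that rose. In the heat shock list, HSPA1A and ZFAND2A rose, by 0.36 ± 0.082 and 0.58 ± 0.12, out of 15, and HSPA6 stayed at most 0.665 CPM. GABARAPL1, of autophagy, rose by 0.95 ± 0.11, NEU1 by 0.44 ± 0.082 and MAP1LC3B by 0.32 ± 0.073, and the 15 lysosome and autophagy genes held 2 more that rose, SQSTM1 and WIPI1 (0.47 ± 0.064 and 0.77 ± 0.16). In the list of hypoxia and glycolysis, NDRG1 rose by 0.55 ± 0.079 and LDHA, lactate dehydrogenase, fell by 0.21 ± 0.054, out of 10 tested. Transcripts encoded by mitochondrial DNA rose in 9 of 13 cases, by at most 0.49 on the log2 scale, with none called in the other 3 fits, and their median in batch 2 was -0.78. The DMSO and MPS1i libraries of batch 1 held 1.29% and 1.55% of counts in these transcripts and the other 4 between 2.25% and 3.94%. Among 82 ribosomal protein genes, 0 rose and RPS27A fell by 0.21 ± 0.056, and their median was 1.19 in batch 2 against -0.10 and -0.066 in batches 1 and 3. Nuclear genes of the respiratory chain had the same split, with 1.24 in batch 2, and none of 81 passed.

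**Figure D4:**
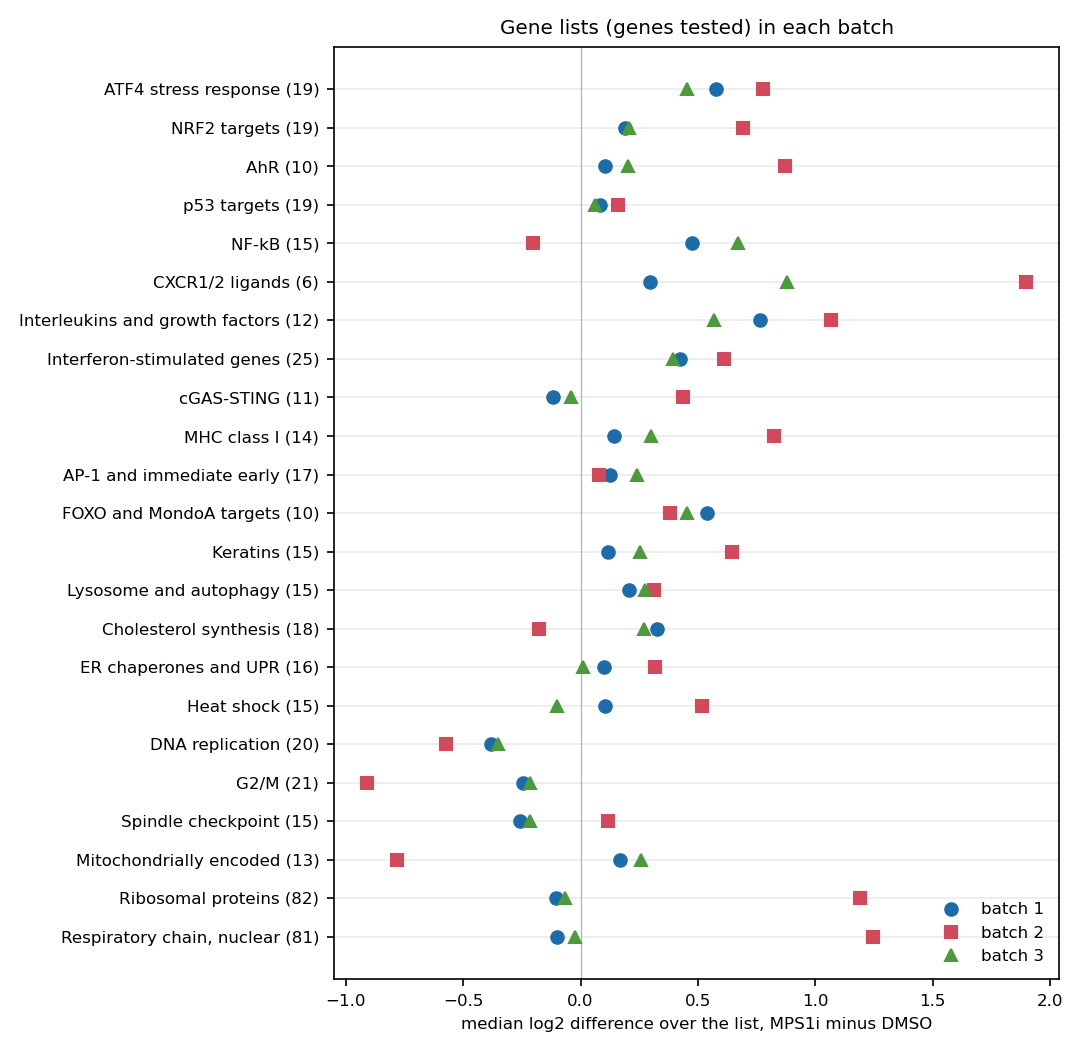
Median log2 difference (MPS1i minus DMSO, log2 CPM) over the genes tested of 23 gene lists (number of genes in brackets) in each batch. Batches 1 and 3 lie close together in most lists; batch 2 goes to 1.19 and 1.24 for ribosomal protein and nuclear respiratory chain genes and to -0.20 for the NF-kB list.

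Some large changes belong to genes with near-identical copies, between which reads can be split in different ways from library to library. SMIM11A was at 1.19, 1.25 and 1.70 CPM in DMSO and 9.70, 1.63 and 11.6 CPM in MPS1i and rose by 2.88 ± 0.20 without batch 2. U2AF1 was at 15.9, 1.34 and 2.26 CPM in DMSO and 4.34, 8.85 and 1.83 CPM in MPS1i, and PWP2 at 0.489, 0.223 and 4.91 CPM in DMSO and 0.416, 1.20 and 0.166 CPM in MPS1i. Both were called down, at -1.39 ± 0.19 and -2.88 ± 0.41, on the strength of 1 batch each, and they are uncertain, as is FAM45BP, a pseudogene (-0.88 ± 0.18). CTGF, a target of YAP, was called down (-0.50 ± 0.063) with a level of 1412, 135 and 172 CPM in DMSO and 781, 202 and 157 CPM in MPS1i, and the fall was large in batch 1 alone (log2 difference -0.86, against -0.13 in batch 3). The YAP targets CYR61 and F3 also fell, with log2 fold changes of -0.29 ± 0.070 and -0.29 ± 0.066, out of 8, while AXL, AMOTL2 and ANKRD1 had -0.11 ± 0.061, -0.043 ± 0.079 and 0.16 ± 0.14.

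None of the genes above passed in edgeR with all 3 batches, and their log2 fold changes often differed there. Of the 463 genes called without batch 2, 422 had the same direction with all 3 batches and 41 the opposite one, and 197 of the 422 moved by more than 1.5 times. Among the stress and inflammatory genes given above from batches 1 and 3, the log2 fold changes with all 3 batches were larger for ATF4 (0.57 ± 0.22), DDIT3 (1.38 ± 0.40), NUPR1 (2.17 ± 0.50), AKR1C1 (0.78 ± 0.25), AKR1C2 (0.68 ± 0.25), IL6 (1.79 ± 0.48), CXCL2 (1.82 ± 0.44) and ISG15 (1.07 ± 0.41). They were also larger for MSMO1 (0.57 ± 0.21), XBP1 (0.66 ± 0.22), ZFAND2A (1.02 ± 0.33) and MAP1LC3B (0.59 ± 0.24), and smaller for MUC5AC (0.57 ± 0.48), EGR1 (0.75 ± 0.34), SQSTM1 (0.15 ± 0.25) and WIPI1 (0.29 ± 0.36). Among genes that fell, values with all 3 batches were further below 0 for MCM3 (-0.60 ± 0.21), UHRF1 (-0.74 ± 0.26), CCNA2 (-0.60 ± 0.21), PLK1 (-0.62 ± 0.24), KIF11 (-0.57 ± 0.22), HS3ST3A1 (-1.11 ± 0.33) and LDHA (-0.37 ± 0.20). Those of CDCA7 (-0.79 ± 0.23) and LMNB1 (-0.79 ± 0.23) were also further below 0. Values closer to 0 were those of RNASEH2B (-0.10 ± 0.24), VIM (-0.14 ± 0.24), CDK1 (-0.10 ± 0.24), AURKB (-0.17 ± 0.20), SPC25 (-0.30 ± 0.24), PWP2 (-0.88 ± 1.29), CTGF (-0.14 ± 0.30), CYR61 (-0.13 ± 0.22) and F3 (-0.19 ± 0.19). MAD2L1 (0.027 ± 0.25), RPS27A (0.40 ± 0.42) and U2AF1 (0.060 ± 0.88) had a positive value with all 3 batches. Closer to their values without batch 2 were, among others, KRT17 (1.28 ± 0.24), KLF2 (1.16 ± 0.22), SLC7A11 (0.85 ± 0.19), ASNS (0.97 ± 0.26), IL11 (0.95 ± 0.23), NFKB2 (0.82 ± 0.20), SKP2 (-0.66 ± 0.19) and UBR7 (-0.62 ± 0.19). The same goes for HMOX1 (1.17 ± 0.21) and CYP1B1 (1.20 ± 0.24).

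SK-GT-4 cGAS KO cells and OE33 Cas9 cells, none of whose libraries entered the fit without batch 2, gave values for the same genes. Of the 269 genes that rose, 219 (81.4%) were higher in MPS1i in OE33 Cas9 cells, where 51.7% of all these genes were higher. Of the 194 that fell, 171 (88.1%) were lower there, against 48.3%. In cGAS KO cells, 210 (78.1%, against 54.2%) and 149 (76.8%, against 45.8%) had the same direction with all 3 batches. Replicate 1 of the cGAS KO cells in DMSO was, of the other 23 libraries, most like Cas9 MPS1i replicate 2 (correlation of log2 levels 0.941). Without KO batch 1, these were 220 (81.8%, against 48.2%) and 172 (88.7%, against 51.8%). CYP1A1 had a log2 fold change of 1.08 ± 0.11 here, 1.63 in cGAS KO cells without batch 1 (1.55 with it) and 2.46 in OE33 Cas9 cells. In the same order CHAC1 had 1.51, 0.13 (0.42 with KO batch 1) and 0.77, and IFIT2 had 1.07, 0.42 (0.34) and 1.14.

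**Figure D5:**
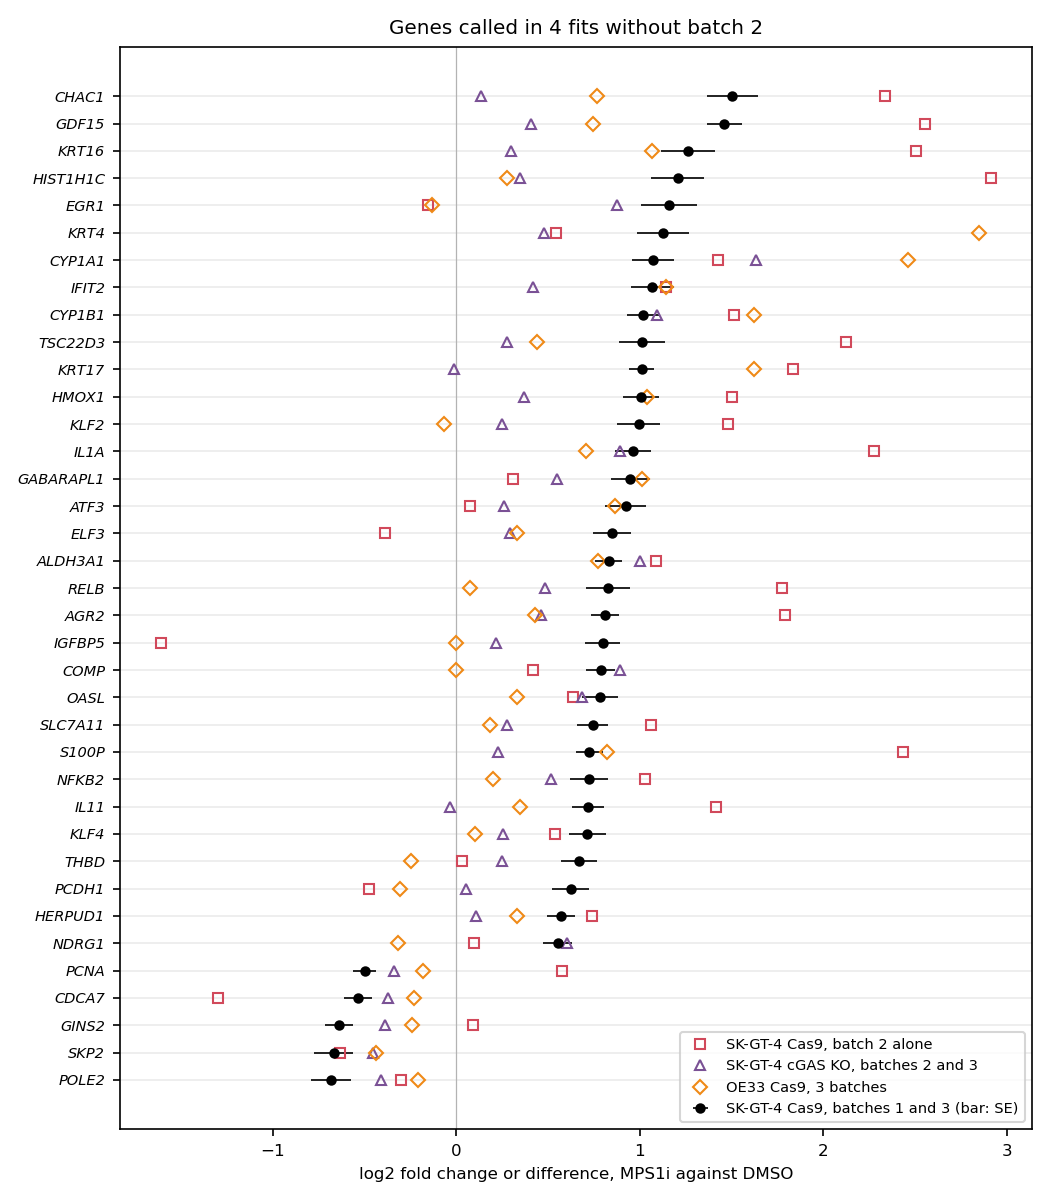
Log2 fold change (MPS1i against DMSO) of the 32 genes called up and 5 called down in 4 fits without batch 2 (black, bar: standard error), with the log2 difference in batch 2 alone (squares), and the log2 fold changes in cGAS KO cells (batches 2 and 3) (triangles) and in OE33 Cas9 cells (diamonds). These cGAS KO libraries were also part of 1 of the 4 fits that chose the genes, so their direction is not independent of the choice. The cGAS KO value has the same direction for 30 of the 32 and 5 of the 5, and the OE33 value for 26 and 5.

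The difference of the MPS1i effect between Cas9 and cGAS KO cells passed for 0 genes with all 12 libraries (0.0% in each direction), with a more positive effect in Cas9 cells for 674 genes (2.96%) and a more negative one for 274 (1.2%) at an unadjusted p under 0.05. In the 8 libraries without Cas9 batch 2 and KO batch 1, the effect was more positive in Cas9 cells for 13 genes (0.0609%) and more negative for 7 (0.0328%). Among the 13 were KRT17, with a difference of 1.02 ± 0.16 (SE, adjusted p = 1.93e-07), GDF15 with 1.05 ± 0.17, CHAC1 with 1.37 ± 0.22, IL32 with 1.32 ± 0.26 and SIK1 with 2.64 ± 0.59. The 13 also held genes with near-identical copies and pseudogenes, such as BOLA2B and MEMO1P1, and so did the 7, such as U2AF1 and EIF3C. For CXCL8 the difference in these 8 libraries was 0.43 ± 0.17 and for IFIT2 0.64 ± 0.25, and neither passed. Cas9 batches 1 and 3 and KO batches 2 and 3 share 1 batch number, and the study grew each genotype as separate clones, so genotype, clone and batch cannot be told apart in these differences.

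Between the cell lines, 0 genes passed with all batches (0.0% in each direction, with 312 (1.38%) and 354 (1.57%) at an unadjusted p under 0.05). Without batch 2 of SK-GT-4, and with all OE33 batches kept, the effect was more positive in SK-GT-4 Cas9 than in OE33 Cas9 cells for 75 genes (0.349%). It was more negative for 24 (0.112%), so the lines were compared on unlike sets of batches. The 75 also held genes with near-identical copies and pseudogenes, such as U2AF1L5 and TCEA1P2. IL32 differed by 1.36 ± 0.17, EGR1 by 1.30 ± 0.17 and IL1RL1, a receptor of IL-33, by 1.25 ± 0.14, all more positive in SK-GT-4. CYP1A1 differed by -1.37 ± 0.18 and AKR1C1 by -1.35 ± 0.16, with the larger rise in OE33.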

How the data were processed

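RNA-seq was done on 24 libraries of esophageal adenocarcinoma lines, and 6 of them, SK-GT-4 Cas9 in DMSO or 500 nM reversine, form the comparison. Poly(A)-selected libraries were sequenced as paired ends. Per the submitters' processing notes, reads were aligned with HISAT2 2.0.5 to GRCh38 and counted per gene with featureCounts 1.5.0. The authors deposited raw counts. The strand setting of the counting is not given in the sources used here, so overlapping antisense genes cannot be told apart. Counts of near-identical copies are uncertain.

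Tests used edgeR 4.0.16 in R 4.3.3 (quasi-likelihood, TMM, Benjamini-Hochberg over all genes tested, threshold an adjusted p of 0.01), with the batch of the labels as a block. Across genes, the deviations of the DMSO and MPS1i libraries of the same batch correlated at 0.40, 0.033 and 0.45. Log2 CPM for plots and batch differences used a prior count of 2. Alternatives used DESeq2 1.42.0 and ComBat-seq (sva 3.50.0), and a length and GC trend was a spline with 5 degrees of freedom. The standard error is the absolute log2 fold change over the square root of F. Where nothing more is known of a batch, p-values cover the spread between libraries as each fit estimated it. Without batch 2 that spread came from the trend over all genes. The scripts were tested on simulated data.

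Named genes were the 12 rising and 12 falling genes with the smallest p with all 3 batches (a mean of at least 1 CPM, the same sign in 3 of 3 batches), 5 each without batch 2, 11 genes of the study's question, the 3 members of each list with the smallest p, and the 8 genes most raised and 8 most lowered in MPS1i replicate 2 at 10 CPM or more. Members and lists were chosen with earlier results of these data known. Promoters came from RefSeq (GRCh38.p14).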

Additional observations from a re-analysis of the deposited data

Results flagged for a closer look

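A total of 4 results moved one way in every batch of SK-GT-4 Cas9 cells and the opposite way in every batch of a comparison group. They came from a scan of 61 genes and 35 gene lists, with lists of fewer than 5 genes tested left out. Each was set against both SK-GT-4 cGAS KO and OE33 Cas9 cells. How many such results random signs would give was not computed, so 4 is not read as an excess. Batch 1 of the cGAS KO cells includes the DMSO library most like Cas9 MPS1i replicate 2. CXCL2 had log2 differences of 1.01, 2.58 and 1.67 between MPS1i and DMSO in batches 1, 2 and 3 of Cas9 cells, and of -0.17, -0.31 and -0.27 in cGAS KO cells. For this gene the difference between genotypes was tested in edgeR and did not pass, at 2.16 (adjusted p = 0.624) with all 12 libraries and 1.66 (adjusted p = 1) without Cas9 batch 2. The differences of the 3 gene lists were not tested. The median over 5 epithelial markers was 0.053, 0.71 and 0.25 in Cas9 cells and -0.79, -0.085 and -0.00058 in cGAS KO cells. The median over 14 epithelial and mesenchymal genes was -0.084, -0.13 and -0.015 in Cas9 cells and 0.18, 0.0090 and 0.085 in cGAS KO cells. The median over 10 genes of hypoxia and glycolysis was 0.055, 0.052 and 0.11 in SK-GT-4 Cas9 cells and -0.24, -0.32 and -0.27 in OE33 Cas9 cells.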

How the results depend on the processing

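With all 3 batches, edgeR called 0 genes up and 0 down, also with DESeq2's size factors, with either other filter and with no replicate block. The same held with 12 SK-GT-4 libraries and with a length and GC trend removed. It also held without the MPS1i library of batch 2 and with no replicate block. That setting changed the block too, so it does not show the effect of leaving out this library alone. DESeq2 called 3 up and 0 down, and ComBat-seq followed by DESeq2, with no replicate block, 49 up and 6 down. Leaving out 1 replicate at a time gave 0 to 269 genes up and 0 to 194 down. The highest counts came without replicate 2, and the single gene called without replicate 3 was LTB, a low-count gene (log2 fold change 4.28). Without batch 2, the 269 up and 194 down became 45 and 21 in DESeq2, 83 and 19 with filterByExpr, 67 and 7 with 8 libraries, 0 and 0 with no replicate block, 0 and 0 with 10 libraries, and 311 and 408 with the length and GC trend removed. The difference between genotypes went from 0 and 0 to 13 and 7 with 8 libraries. That between lines went from 0 and 0 to 75 and 24 without replicate 2 of SK-GT-4, and both stayed at 0 and 0 with no replicate block. The cause of these shifts was not tested. Directions were followed in 61 genes, which include genes named by a rule that asked for the same sign in 3 of 3 batches. That rule favors a kept direction, so the count is not a measure of stability. Of these 61 genes, 59 kept their direction in all of 14 settings. PCNA, at -0.15, was at -0.50 without replicate 2, at 0.064 without replicate 1 and 0.034 without replicate 3, and KRT4 was at -0.060 without the MPS1i library of batch 2 and with no replicate block. Of all 463 genes called without batch 2, 41 had the opposite direction with all 3 batches. Calls without batch 2 rest on 2 libraries per group. Settings marked as without batch 2 together with another change, and the length and GC trend, were chosen after seeing the data.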

Other observations

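MPS1i replicate 2 of the SK-GT-4 Cas9 cells had single genes far outside the other 5 libraries, given here as values without a test. TSTD2 was at 14.4, 19.7 and 21.7 CPM in DMSO and 17.0, 0.241 and 20.1 CPM in MPS1i in batches 1, 2 and 3. HES4, a NOTCH target, was at 15.1, 26.0 and 20.1 CPM and then 15.4, 106.1 and 24.9 CPM. CAP1, an actin regulator, was at 8.73 CPM in this library and between 193 and 217 CPM in the other 5. The changes in batches 1 and 3 had a Spearman correlation of 0.37 across 10501 genes, which are not independent and rest on 4 libraries, and batch 2 had 0.079 with batch 1 and 0.064 with batch 3.

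A gene called by several alternatives and not described above is LTB, lymphotoxin beta, a target of NF-kB. LTB was at 0.0543, 0.134 and 0.198 CPM in DMSO and 1.29, 2.59 and 0.887 CPM in MPS1i, so all MPS1i libraries lay above all DMSO libraries at a low level. It was named after its values were seen.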
